A study of Saccharomyces cerevisiae with 17 samples.

Results

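The 9 genes described here make and import inositol, build phosphatidylcholine, or control that synthesis in Saccharomyces cerevisiae: INO1, ITR1, CHO1, PSD1, CHO2, OPI3, INO2, INO4 and OPI1. They were chosen by name, as the genes whose symbol in the array annotation is one of these, and they are 9 of the 5449 S. cerevisiae genes compared, with 1 probe set each. Their transcripts were followed in the industrial wine yeasts VIN13 and BM45 as each fermented Colombar grape must under micro-aerobic conditions. Biotin-labelled total RNA was read on Affymetrix yeast arrays from day 2 (exponential growth), day 5 (early stationary phase) and day 14 (late stationary phase). There were 17 arrays, 3 for VIN13 on each of these days, and for BM45 2 on day 2, 3 on day 5 and 3 on day 14. The labels give no mutation, added agent or treatment for either strain, and strain and day are all that they set between the groups. Other differences, such as RNA quality, are not excluded. Nothing in them says that the arrays of a group came from separate cultures, so each p-value reflects the spread among these arrays alone, which may be technical. The number of arrays limits the precision of every value.

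Inositol and phospholipid synthesis share one control circuit in yeast. INO1 makes inositol phosphate from glucose 6-phosphate, and inositol joins CDP-diacylglycerol to give phosphatidylinositol, while serine joins the same precursor to give phosphatidylserine, which is decarboxylated to phosphatidylethanolamine and methylated to phosphatidylcholine. The Ino2 and Ino4 proteins bind as a pair to the UASINO element in the promoters of these genes and activate them. Opi1 represses them when inositol is plentiful, and phosphatidic acid holds Opi1 at the endoplasmic reticulum when it is not.

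Values below are intensities on a linear scale for single arrays, in the order of the replicate numbers. They can be compared between arrays of a strain for a gene but not between genes. Between the strains, a sequence difference under a probe set could also change the intensity, which was not tested. Differences are between group means of log2(intensity + 16) ± standard error of limma's fit to the 17 arrays, and p-values carry a Benjamini-Hochberg adjustment across all 5449 genes. The pseudocount of 16 slightly understates changes of dim genes. The words rose, fell, higher and lower are kept for adjusted p under 0.05. The arrays report levels relative to the other transcripts of a sample. A change in a transcript thus cannot be told apart from an opposite change in the rest of them.

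The labelled growth phases were only partly seen in other transcripts. Of 6 genes of growing cells, 4 fell between day 2 and day 14 in each strain, where 35.5% of all genes fell in VIN13 and 46.6% in BM45. The other two, CLN2 and RNR1, rose between day 2 and day 5 in both strains, RNR1 by 1.14 in VIN13 and by 1.69 in BM45, and fell after day 5. Of 6 genes of stationary cells 2 rose and 1 fell between day 2 and day 14 in each strain, a share of rises close to the 28.2% of all genes in VIN13 and 28.8% in BM45. Between day 2 and day 5, 2 of the 6 rose and none fell in each strain. Over all genes 15.5% rose and 22.2% fell in VIN13 in that step, and 22.8% and 33.9% in BM45. SSA3 rose by 1.86 in VIN13 and 2.18 in BM45, and HSP12 by 1.44 and 0.53 in the same order. Between day 5 and day 14, 2 fell in each strain, where 24.5% of all genes fell in VIN13 and 43.1% in BM45. Over those days SNZ1 rose in BM45, by 0.90, where 23.9% of all genes rose. The median gene of an array lay between 866.6 and 1150.4, and the array medians of BM45 were lower at day 14 than at day 2 by 0.33 on the log2 scale, against 0.07 lower in VIN13. The ratio of 3' to 5' signal of the ACT1 control, which rises as RNA is degraded or incompletely copied, averaged 3.42 ± 1.96 at day 2, 2.07 ± 0.688 at day 5 and 1.97 ± 0.375 at day 14 in VIN13 (SD, n = 3 each). In BM45 it averaged 3.81 ± 2.15 at day 2 (SD, n = 2), 1.52 ± 0.0867 at day 5 and 1.43 ± 0.0333 at day 14 (SD, n = 3 each). In VIN13 replicate 1 of day 2, replicate 3 of day 5 and replicate 3 of day 14 stood apart from their groups in like ways, with ratios of 5.55, 2.86 and 2.37, and so did BM45 day 2 replicate 4, with 5.33. The other 13 arrays had ratios from 1.39 to 3. The 4 were picked with these data in view, and in a pair both arrays lie equally far from their mean. A fit without the 4 leaves BM45 day 2 with 1 array, as does leaving out either array of that pair. The fit without the 4 also takes its spread from arrays that are more alike, so its p-values and counts are a description only.

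INO1 (YJL153C), the inositol-3-phosphate synthase that commits glucose 6-phosphate to inositol, was lower in VIN13 than in BM45 at every day and dipped at day 5 in both. In VIN13 its intensity was 7851, 9195 and 8383 at day 2, 6274, 6278 and 6285 at day 5, and 10816, 9348 and 9605 at day 14. The intensity in BM45 was 14968 and 14859 at day 2, 10629, 10949 and 11216 at day 5, and 13257, 13718 and 13800 at day 14. At each day every VIN13 array lay below every BM45 array, and in each strain every day 5 array lay below those of the other days.

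INO1 fell in the step between day 2 and day 5, by 0.43 ± 0.08 in VIN13 (adjusted p = 0.00106) and by 0.45 ± 0.09 in BM45 (adjusted p = 0.000877). By day 14 it had risen again from its day 5 level, by 0.66 ± 0.08 in VIN13 (adjusted p = 3.48e-05) and by 0.31 ± 0.08 in BM45 (adjusted p = 0.00352). The recovery thus passed the day 2 level in VIN13, where day 14 stood 0.23 ± 0.08 above day 2 (adjusted p = 0.0258). That last call was lost without VIN13 day 2 replicate 1, VIN13 day 2 replicate 3 or VIN13 day 14 replicate 1, with adjusted p up to 0.114, and with the ACT1 ratio as a covariate (adjusted p = 0.0895). In BM45 day 14 differed from day 2 by -0.13 ± 0.09 (adjusted p = 0.198), with a 95% interval from -0.33 to 0.06. With each array centred on its median gene this difference was 0.20 (adjusted p = 0.0398), a rise.

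INO1 alone among the members was called between the strains at every day. It was lower in VIN13 by 0.82 ± 0.09 at day 2 (1.76-fold, adjusted p = 1.89e-05), by 0.80 ± 0.08 at day 5 (1.74-fold, adjusted p = 5.39e-06) and by 0.46 ± 0.08 at day 14 (1.37-fold, adjusted p = 0.000329). In a fit of the day 2 arrays alone the day 2 difference had adjusted p = 0.0608. From the highest to the lowest, the group means ran BM45 day 2, BM45 day 14, BM45 day 5, VIN13 day 14, VIN13 day 2 and VIN13 day 5. The 2 highest did not differ at this threshold, and the highest VIN13 day 14 array, at 10816, reached into the range of BM45 day 5, whose lowest array was 10629.

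**Figure D1:**
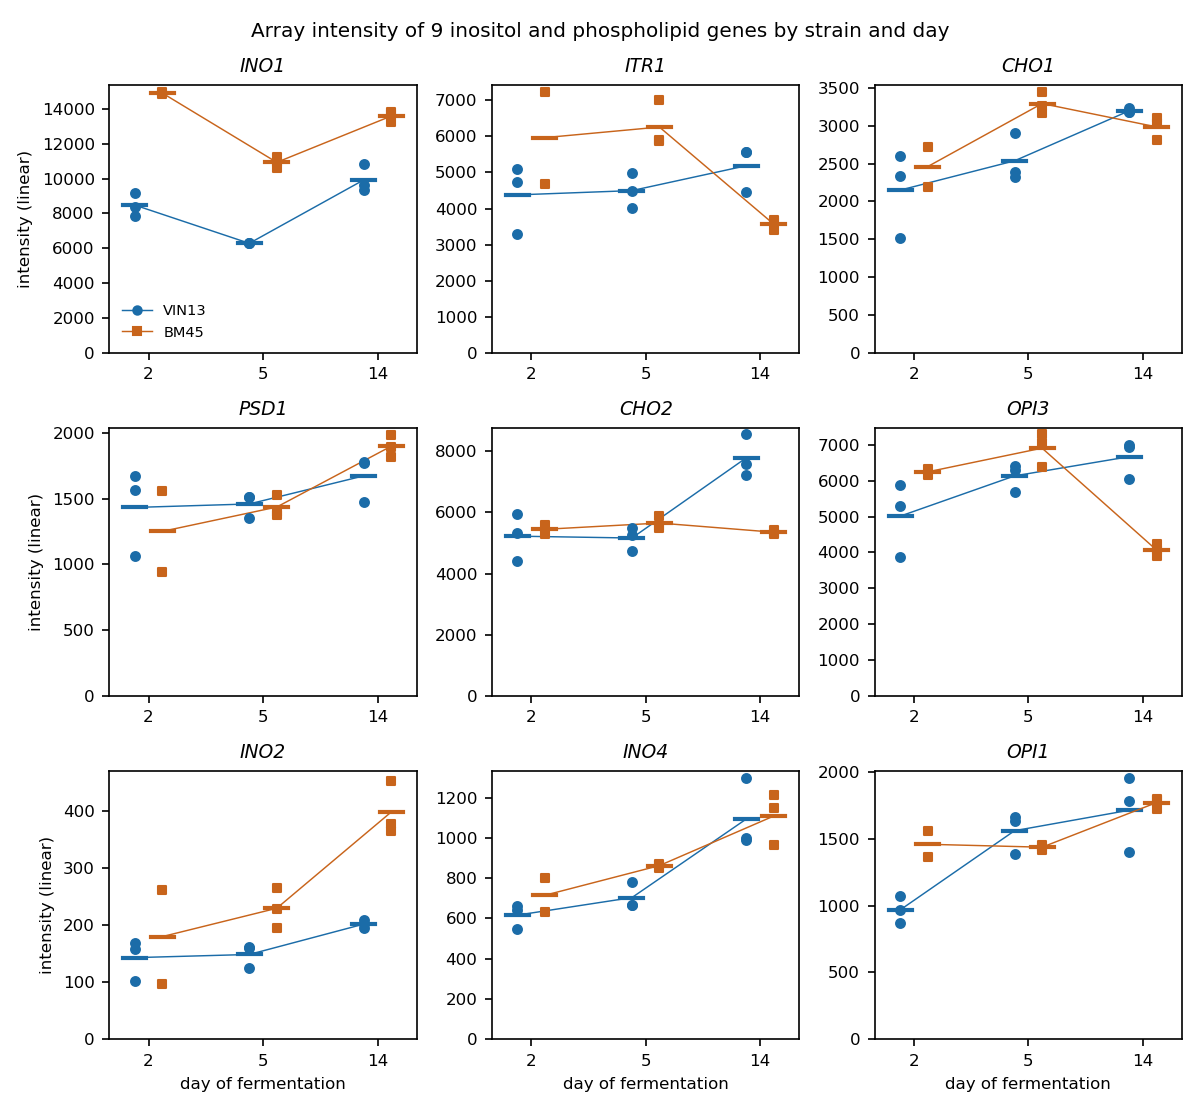
Intensity of the 9 genes on each of the 17 arrays, on a linear axis from 0, against day of fermentation. Circles are VIN13 arrays, squares are BM45 arrays and short bars, joined by lines, are group means of the intensity; INO1 of VIN13 lies below BM45 at every day, while ITR1 and OPI3 of BM45 drop at day 14.

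ITR1 (YDR497C), the major transporter of myo-inositol across the plasma membrane, fell late in BM45. Its intensity in VIN13 was 3305, 5086 and 4745 at day 2, 4490, 4974 and 4027 at day 5, and 5557, 4453 and 5556 at day 14. In BM45 it was 7245 and 4690 at day 2, 5880, 7004 and 5899 at day 5, and 3669, 3406 and 3612 at day 14. The day 14 arrays of BM45 were below all its earlier arrays, while those of VIN13 overlapped with day 2 and day 5.

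Between day 5 and day 14 ITR1 differed by 0.20 ± 0.17 in VIN13 (adjusted p = 0.369) and fell by 0.81 ± 0.17 in BM45 (1.75-fold, adjusted p = 0.00079). Against day 2 it fell by 0.71 ± 0.19 in BM45 (adjusted p = 0.00392). Without BM45 day 2 replicate 2 that fall was 0.40 and was not called (adjusted p = 0.1), and without the other day 2 array it was 1.02. Median centring made it 0.37 (adjusted p = 0.0648). At day 14 ITR1 was higher in VIN13 than in BM45 by 0.53 ± 0.17 (1.45-fold, adjusted p = 0.0181), although that call was lost without BM45 day 14 replicate 2, VIN13 day 14 replicate 1 or VIN13 day 14 replicate 4, with adjusted p up to 0.0625. ITR1 followed the ACT1 ratio within groups, losing 0.416 for each doubling of the ratio. The median slope over all genes was -0.052, a signed value in which gains and losses offset each other. With the ratio as a covariate ITR1 fell by 0.40 between day 2 and day 5 in BM45 (adjusted p = 0.0213), where the difference without it was 0.10 ± 0.19 in the other direction (adjusted p = 0.686). The late fall in BM45 was as large with the covariate, at 0.84 between day 5 and day 14.

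Among the enzymes, CHO1 (YER026C), the phosphatidylserine synthase that opens the route to phosphatidylcholine, rose over the fermentation in VIN13. Its intensity in VIN13 was 1510, 2336 and 2599 at day 2, 2317, 2387 and 2905 at day 5, and 3178, 3231 and 3181 at day 14. The BM45 arrays gave 2721 and 2196 at day 2, 3448, 3266 and 3165 at day 5, and 3034, 2818 and 3100 at day 14. All day 14 arrays of VIN13 lay above all its arrays of days 2 and 5. The rise between day 2 and day 14 in VIN13 was 0.61 ± 0.16 (1.52-fold, adjusted p = 0.00383), and 0.37 without VIN13 day 2 replicate 1, the lowest array, where it was still called. In BM45 the day 5 arrays lay above both day 2 arrays by 0.43 ± 0.18, just outside the threshold (adjusted p = 0.0526), and day 14 stood 0.28 ± 0.18 above day 2 (adjusted p = 0.157). With each array centred on its median gene, which moved this contrast by 0.14, the BM45 step between day 2 and day 5 was 0.57 and was called (adjusted p = 0.00583). It was 0.18 with the ACT1 ratio as a covariate (adjusted p = 0.486), and of the fits without 1 BM45 array of day 2 it was 0.58 when replicate 2 was left out (adjusted p = 0.032) and 0.27 when replicate 4 was (adjusted p = 0.328). Without the 4 arrays that stood apart, which also leaves 1 BM45 array at day 2, it was again 0.27. Over the whole fermentation the CHO1 difference in BM45 ran between 0.02 with the ACT1 ratio (adjusted p = 0.928) and 0.62 with centring, where it was called (adjusted p = 0.00206). No difference between the strains was called for CHO1 at any day, with differences of -0.22, -0.38 and 0.10 at days 2, 5 and 14 and adjusted p from 0.0938 to 0.622.

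PSD1 (YNL169C), the mitochondrial phosphatidylserine decarboxylase, gave 1 call, whose size depended on a single array. In VIN13 its intensity was 1063, 1565 and 1669 at day 2, 1511, 1512 and 1353 at day 5, and 1771, 1470 and 1776 at day 14. BM45 read 1560 and 940 at day 2, 1376, 1530 and 1401 at day 5, and 1894, 1814 and 1986 at day 14. Every day 14 array of BM45 lay above every earlier one, whereas the days overlapped in VIN13. In VIN13 the PSD1 level at day 14 differed from day 2 by 0.24 ± 0.18 (adjusted p = 0.241). PSD1 was 0.64 ± 0.20 higher at day 14 than at day 2 in BM45 (adjusted p = 0.00803), but 0.28 without BM45 day 2 replicate 4, the low array (adjusted p = 0.217). Without all 4 arrays that stood apart, that one among them, it was also 0.28, with 1 BM45 array left at day 2. The step between day 5 and day 14 in BM45, 0.40 with adjusted p = 0.056, was called without the 4 arrays at the same size (adjusted p = 8.51e-05), with centring at 0.59 (adjusted p = 0.0042) and with the ACT1 ratio at 0.37 (adjusted p = 0.00543), but in no fit that left out 1 array. Once the ACT1 ratio entered the fit, the BM45 difference between day 2 and day 14 was 0.13 and no longer called (adjusted p = 0.455). PSD1 lost 0.395 for each doubling of that ratio within groups. PSD2 (YGR170W), the Golgi and vacuolar form of the decarboxylase, was 0.71 ± 0.24 lower at day 14 than at day 5 in BM45 (adjusted p = 0.0163), or 0.52 lower with median centring (adjusted p = 0.052), and was called in no other comparison between days.

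CHO2 (YGR157W), which adds the first methyl group to phosphatidylethanolamine, rose late in VIN13, and no change between days was called in BM45. Its intensity in VIN13 was 4395, 5338 and 5931 at day 2, 5246, 4737 and 5499 at day 5, and 7229, 8559 and 7573 at day 14. In BM45 it was 5303 and 5589 at day 2, 5570, 5878 and 5502 at day 5, and 5302, 5339 and 5410 at day 14. The day 14 arrays of VIN13 were above every other CHO2 value of the study, and the 8 BM45 arrays lay between 5302 and 5878. CHO2 rose by 0.59 ± 0.11 between day 5 and day 14 in VIN13 (1.51-fold, adjusted p = 0.000556), and by 0.58 ± 0.11 between day 2 and day 14 (adjusted p = 0.000248). In BM45 day 14 differed from day 2 by -0.03 ± 0.12 (adjusted p = 0.854, 95% interval -0.28 to 0.23), and median centring turned this into a rise of 0.31 (adjusted p = 0.0266). At day 14 CHO2 was 0.54 ± 0.11 higher in VIN13 than in BM45 (1.45-fold, adjusted p = 0.000713). It hardly followed the ACT1 ratio, with a loss of 0.023 for each doubling.

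OPI3 (YJR073C), the methyltransferase that completes phosphatidylcholine, rose in VIN13 and fell in BM45 between day 2 and day 14. Its intensity in VIN13 was 3868, 5294 and 5874 at day 2, 6425, 6287 and 5696 at day 5, and 6956, 7005 and 6054 at day 14. The BM45 arrays gave 6333 and 6162 at day 2, 7041, 6382 and 7307 at day 5, and 4241, 3895 and 4064 at day 14. At day 14 the lowest VIN13 array, at 6054, stood well above the highest BM45 array, at 4241. In VIN13 OPI3 rose by 0.43 ± 0.13 between day 2 and day 14 (adjusted p = 0.00868), with adjusted p = 0.0632 in a limma fit of the compared arrays alone. That rise was 0.25 without VIN13 day 2 replicate 1 and still called, and 0.22 and not called without the 4 arrays that stood apart (adjusted p = 0.056). In BM45 OPI3 fell by 0.76 ± 0.13 between day 5 and day 14 (1.70-fold, adjusted p = 9.18e-05) and by 0.62 ± 0.14 between day 2 and day 14 (adjusted p = 0.00112). With median centring the fall between day 2 and day 14 was 0.28 (adjusted p = 0.0638). OPI3 was higher in VIN13 than in BM45 by 0.71 ± 0.13 at day 14 (1.64-fold, adjusted p = 0.00032).

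Of the regulators, INO2 (YDR123C), the activator subunit that carries the transcription activation domain, was the dimmest member, and its lowest arrays lay close to the background bound of 88.2 set by probe sets for Schizosaccharomyces pombe. In VIN13 its intensity was 102, 169 and 158 at day 2, 124, 162 and 160 at day 5, and 201, 209 and 196 at day 14. In BM45 it was 263 and 97 at day 2, 228, 266 and 196 at day 5, and 378, 365 and 453 at day 14. The day 14 arrays were the highest of their strain in both, and those of BM45 were above every VIN13 array.

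In VIN13 the INO2 level at day 14 stood 0.48 ± 0.25 above day 2 (adjusted p = 0.107). This difference was called with quantile normalization, at 0.60 (adjusted p = 0.00184), with median centring, at 0.55 (adjusted p = 0.0494), and in a fit of the compared arrays alone (adjusted p = 0.0487). It was 0.18 with the ACT1 ratio as a covariate (adjusted p = 0.467) and 0.26 without the 4 arrays (adjusted p = 0.125). INO2 rose in BM45 by 0.76 ± 0.25 between day 5 and day 14 (adjusted p = 0.0148) and by 1.22 ± 0.28 between day 2 and day 14 (2.33-fold, adjusted p = 0.00108). The first of these calls was lost without BM45 day 5 replicate 3 or BM45 day 14 replicate 3, with adjusted p up to 0.0596. The second varied with the pair of day 2 arrays, being 0.57 without replicate 4 (adjusted p = 0.036) and 1.87 without replicate 2. With the ACT1 ratio as a covariate it was 0.62 (adjusted p = 0.0552), and INO2 lost 0.467 for each doubling of the ratio within groups, the steepest slope among the members. At day 14 INO2 was lower in VIN13 than in BM45 by 0.92 ± 0.25 (1.90-fold, adjusted p = 0.00637), and by 0.94 without the 4 arrays that stood apart.

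INO4 (YOL108C), the partner of Ino2, rose late in both strains. Its intensity in VIN13 was 661, 642 and 548 at day 2, 666, 665 and 782 at day 5, and 992, 1297 and 998 at day 14. BM45 gave 632 and 799 at day 2, 872, 865 and 853 at day 5, and 1148, 1215 and 966 at day 14. In each strain the day 14 arrays lay above all earlier ones, and at day 14 the strains overlapped. INO4 rose over the whole fermentation by 0.81 ± 0.13 in VIN13 (1.75-fold, adjusted p = 8.07e-05) and by 0.63 ± 0.15 in BM45 (1.54-fold, adjusted p = 0.00117). The step between day 5 and day 14 was 0.62 ± 0.13 in VIN13 (adjusted p = 0.00158) and 0.35 ± 0.13 in BM45 (adjusted p = 0.027). The BM45 step was not called in 5 of the 6 fits that left out 1 of its arrays, with adjusted p up to 0.11. The exception was the fit without BM45 day 14 replicate 3. Median centring added a call between day 2 and day 5 in BM45, where INO4 then rose by 0.42 (adjusted p = 0.0357), against 0.27 ± 0.15 as measured (adjusted p = 0.122). Unlike the other members, INO4 gained with the ACT1 ratio, by 0.174 for each doubling, and with the ratio as a covariate its rises over the whole fermentation were 0.92 in VIN13 and 0.85 in BM45.

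OPI1 (YHL020C), the repressor, rose between day 2 and day 5 in VIN13, the one rise called among the members over those days. Its intensity in VIN13 was 869, 1071 and 965 at day 2, 1636, 1665 and 1387 at day 5, and 1957, 1403 and 1789 at day 14. BM45 read 1559 and 1363 at day 2, 1438, 1422 and 1457 at day 5, and 1729, 1798 and 1795 at day 14. The 3 VIN13 arrays of day 2 were the lowest OPI1 values of the study. OPI1 rose by 0.68 ± 0.12 between day 2 and day 5 in VIN13 (1.60-fold, adjusted p = 0.000542), and stood 0.81 ± 0.12 above day 2 at day 14 (adjusted p = 3.77e-05). In BM45 the step between days 2 and 5 was -0.02 ± 0.13 (adjusted p = 0.915, 95% interval -0.31 to 0.27). A rise of 0.30 ± 0.12 between day 5 and day 14 in BM45 (adjusted p = 0.0394) was not called when any 1 of the 6 arrays of those days was left out, with adjusted p up to 0.0901. OPI1 was lower in VIN13 than in BM45 at day 2 by 0.59 ± 0.13 (1.50-fold, adjusted p = 0.00462), with adjusted p = 0.116 in a fit of the day 2 arrays alone. At days 5 and 14 the strains differed by 0.11 ± 0.12 and -0.06 ± 0.12 (adjusted p = 0.537 and 0.697).

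Counts of members called are set here against the shares of all genes called. Between day 2 and day 5, in VIN13 1 member rose and 1 fell, where 15.5% of all genes rose and 22.2% fell, and in BM45 1 of 9 fell and none rose, where 33.9% fell and 22.8% rose. That count of 0 rises covers adjusted p from limma, and CHO1 in BM45 had unadjusted p = 0.0301. Between day 5 and day 14, 3 members rose in VIN13 against 19% of all genes and none fell against 24.5%. In BM45 over the same days 4 rose against 23.9% and 2 fell against 43.1%. Over the whole fermentation 6 of 9 rose in VIN13 against 28.2% of all genes and none fell against 35.5%, and the median member differed by 0.48 where the median gene differed by -0.06. In BM45 3 rose against 28.8% and 2 fell against 46.6%, with medians of 0.28 for the members and -0.24 for all genes.

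**Figure D2:**
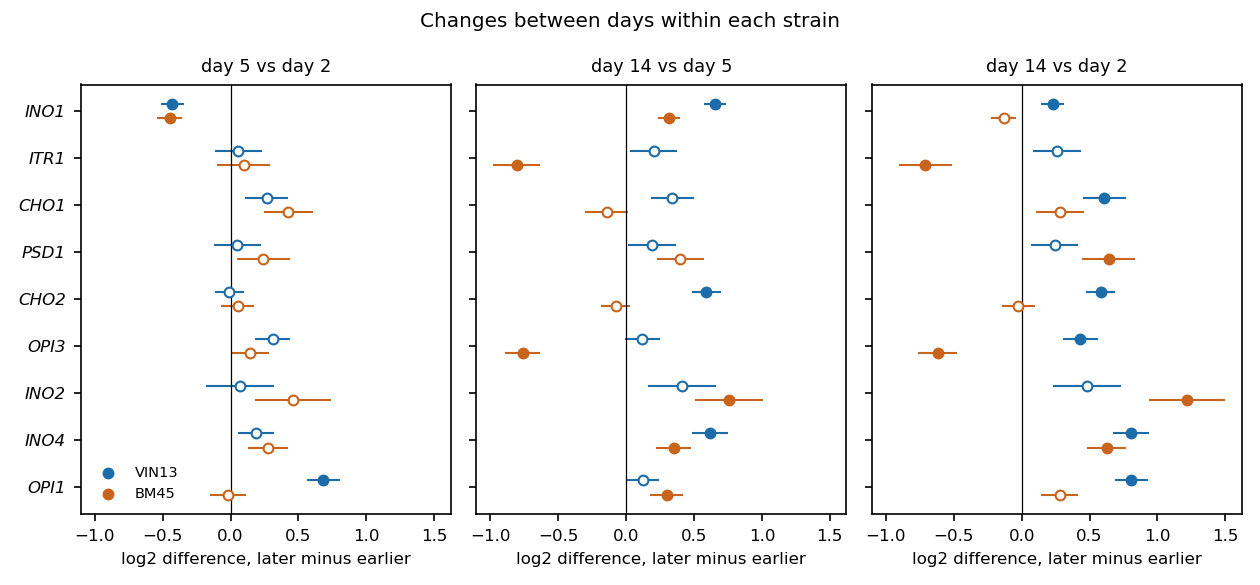
Difference on the log2 scale between days for the 9 genes, with a panel for each pair of days. Blue points are VIN13 and orange points BM45, filled where adjusted p lay under 0.05 and open otherwise, bars are standard errors, and INO1 falls and then rises in both strains while ITR1 and OPI3 fall at day 14 in BM45.

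The direct test of strain against time asked whether a change between days differed between the strains. Between day 5 and day 14 the change was higher in VIN13 for 4 members and lower for none, where 23.8% and 10.3% of all genes passed. ITR1 differed most, by 1.01 ± 0.25 (adjusted p = 0.00631), then OPI3 by 0.88 ± 0.18 (adjusted p = 0.00217), CHO2 by 0.67 ± 0.15 (adjusted p = 0.00404) and INO1 by 0.34 ± 0.12 (adjusted p = 0.0351). The transporter and both methyltransferases were still called in each of the 12 fits that left out 1 array, and with median centring, which moved this contrast by 0.19. INO1 was called in 3 of the 12, those without VIN13 day 5 replicate 3, VIN13 day 14 replicate 3 or VIN13 day 14 replicate 4, had adjusted p up to 0.0806 in the others, and was 0.16 with centring (adjusted p = 0.273).

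Over the whole span, day 14 against day 2, the change was higher in VIN13 for 5 members and lower for none, against 30.6% and 10.1% of all genes, and median centring moved this contrast by 0.27. OPI3 differed by 1.05 ± 0.19 (adjusted p = 0.00082), ITR1 by 0.97 ± 0.26 (adjusted p = 0.00873) and CHO2 by 0.61 ± 0.16 (adjusted p = 0.00782). Centring left OPI3 at 0.78 (adjusted p = 0.0039) and ITR1 at 0.70 (adjusted p = 0.0298), and CHO2 at 0.34, no longer called (adjusted p = 0.102). CHO2 was 0.38 without the 4 arrays that stood apart, which leaves 1 BM45 array at day 2. OPI1 differed by 0.53 ± 0.18 (adjusted p = 0.0302) and INO1 by 0.36 ± 0.12 (adjusted p = 0.0303), and with centring they were 0.26 and 0.09 and not called (adjusted p = 0.232 and 0.534). Of the 11 fits without 1 array, OPI1 was not called in 7 and INO1 in 6, with adjusted p up to 0.0962 and 0.0685. Between day 2 and day 5 OPI1 alone was called, higher in VIN13 by 0.70 ± 0.18 (adjusted p = 0.0291), where 6.53% of all genes were higher and 2.13% lower. It was not called without VIN13 day 2 replicate 3, VIN13 day 5 replicate 1 or 2, or any 1 of the BM45 day 5 arrays, with adjusted p up to 0.0753. Adjusted p for INO2, INO4, CHO1 and PSD1 in these tests lay between 0.11 and 0.81, and CHO1 alone had an unadjusted p under 0.05, for day 14 against day 5. Other settings did call some of them. For CHO1 that difference was 0.57 without the 4 arrays that stood apart (adjusted p = 0.000617), against 0.48 with all arrays. For INO2 the change between day 2 and day 14 differed by -0.74 with all arrays, by -0.92 with quantile normalization (adjusted p = 0.0046) and by -1.003 with median centring (adjusted p = 0.0335). It depended on the pair of BM45 day 2 arrays, at -1.39 without replicate 2 (adjusted p = 0.0012) and -0.09 without replicate 4 (adjusted p = 0.834). Leaving out that replicate 2 also gave an INO2 difference of -1.04 between day 2 and day 5 (adjusted p = 0.0151), against -0.39 with all arrays. For PSD1 between day 2 and day 14 the difference was -0.40 with all arrays and -0.66 with centring (adjusted p = 0.0381). It was -0.60 when VIN13 day 2 replicate 1 was left out (adjusted p = 0.0447), -0.76 when BM45 day 2 replicate 2 was (adjusted p = 0.0188) and -0.04 when BM45 day 2 replicate 4 was (adjusted p = 0.922).

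**Figure D3:**
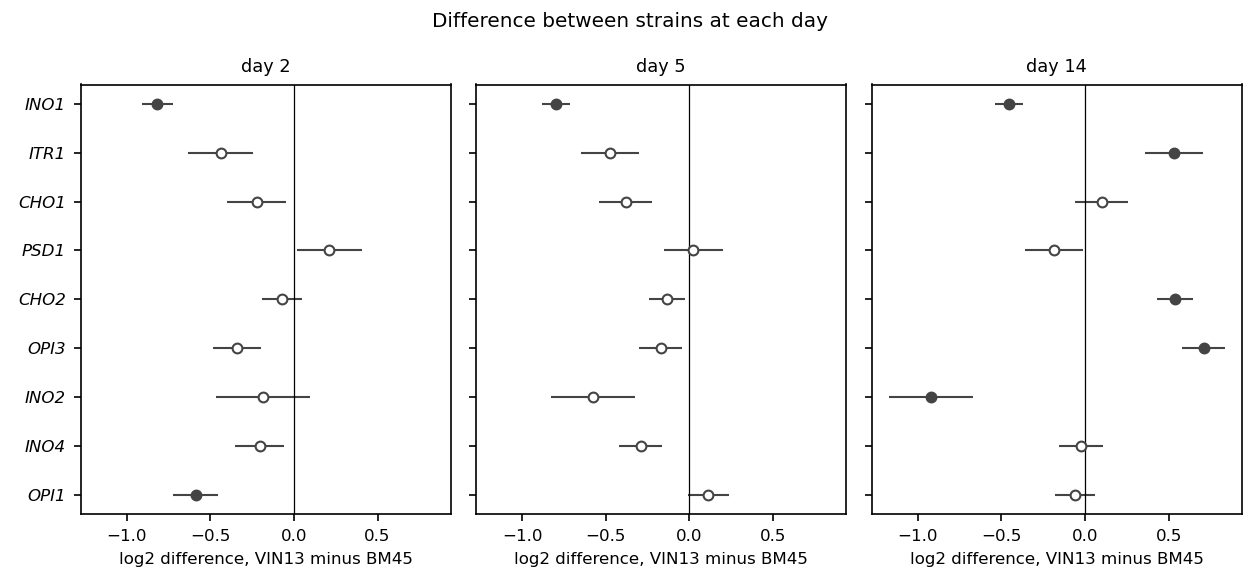
VIN13 minus BM45 on the log2 scale for the 9 genes at days 2, 5 and 14. Points are filled where adjusted p lay under 0.05 and open otherwise, bars are standard errors, and INO1 is below 0 at every day while ITR1, CHO2 and OPI3 lie above 0 at day 14.

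Across strains at a single day, 0 members were higher and 2 lower in VIN13 at day 2 (INO1 and OPI1), where 7.95% of all genes were higher and 23.3% lower. At day 5 INO1 alone was lower, against 15.3% of all genes, and none was higher, against 9.89%. At an unadjusted p under 0.05 in limma, ITR1, CHO1, INO2 and INO4 also passed at day 5, with negative differences and p from 0.0155 to 0.0409, but not after adjustment. At day 14 ITR1, CHO2 and OPI3 were higher, against 32.4% of all genes, and INO1 and INO2 were lower, against 21.1%.

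The members did not share a single profile. Across the 6 group means, which include the same days and strains for every gene, ITR1 and OPI3 ran together (r = 0.894), as did CHO1 and INO4 (r = 0.856), INO2 and INO4 (r = 0.83) and PSD1 and INO4 (r = 0.804). The pairs that ran against each other most were ITR1 and PSD1 (r = -0.664), OPI3 and PSD1 (r = -0.533) and OPI3 and INO2 (r = -0.501). The target gene INO1 and its activator gene INO2 had r = 0.55, and INO1 and the repressor gene OPI1 had r = 0.278. The range from the lowest to the highest group mean was 1.40 for INO2 and 1.25 for INO1, and between 0.59 for CHO2 and 0.87 for OPI1 in the others. The genes whose group means were most like INO1, among 3186 that lay above background and spanned at least 1 on the log2 scale, were ATG11, MSH6, TFC7, MET16 and RPL9A, with r from 0.94 to 0.98. INO2 came at place 320 of that order, and the other members did not span enough to be ranked.

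Around the members, 49 further genes of the pathway were counted in 7 lists. Over the whole fermentation 14 of them rose and 17 fell in VIN13, and 14 rose and 19 fell in BM45, where 28.2% of all genes rose and 35.5% fell in VIN13 and 28.8% rose and 46.6% fell in BM45.

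The genes for the salvage route, which makes phosphatidylcholine and phosphatidylethanolamine from imported choline and ethanolamine (the Kennedy pathway), were mostly called as falls early. In that first step, between day 2 and day 5, 5 of 7 fell in VIN13 and 6 of 7 in BM45, where 22.2% of all genes fell in VIN13 and 33.9% in BM45, and none rose. The medians of the 7 were -0.41 in VIN13 and -0.69 in BM45, against -0.03 and -0.07 over all genes. CKI1, the choline kinase, was called in neither strain, and PCT1, which activates phosphocholine to CDP-choline, was not called in VIN13, at -0.11 ± 0.14 (adjusted p = 0.546). HNM1, the choline transporter, had intensities of 1683, 1883 and 1871 at day 5, against 4620, 5609 and 5560 at day 2, in VIN13. In BM45 it had 1789, 2016 and 1703 at day 5, against 7184 and 4132 at day 2. It fell by 1.53 ± 0.16 in VIN13 (adjusted p = 5.98e-06) and by 1.56 ± 0.18 in BM45 (adjusted p = 6.4e-06). EKI1, the ethanolamine kinase, fell by 0.86 ± 0.10 in VIN13 and by 1.26 ± 0.12 in BM45, and EPT1, which joins the activated base to diacylglycerol, by 0.73 ± 0.10 and 0.84 ± 0.11 in the same order. At day 14 all of HNM1, EKI1 and EPT1 remained lower than at day 2 in both strains, and the fall since day 2 was smaller in VIN13 by 0.66 for HNM1 (adjusted p = 0.0403), 1.01 for EKI1 (adjusted p = 0.000261) and 0.64 for EPT1 (adjusted p = 0.00298). With median centring these were 0.40 and not called for HNM1 (adjusted p = 0.152) and 0.37 for EPT1 (adjusted p = 0.028).

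Of 7 genes that supply inositol or use it for phosphatidylinositol and its phosphates, none rose between day 2 and day 14, and 2 fell in VIN13 and 3 in BM45. Over all genes 28.2% rose and 35.5% fell in VIN13, and 28.8% rose and 46.6% fell in BM45. The most negative difference of the list in VIN13 was -0.72, that of INM2. LSB6 had group means on the log2 scale of 10.60 at day 2 and 10.05 at day 14 in VIN13, and 10.13 and 10.21 in BM45. STT4, a phosphatidylinositol 4-kinase, differed by -0.08 ± 0.09 in VIN13 (adjusted p = 0.46). In BM45 it fell by 1.23 ± 0.10 (adjusted p = 2.91e-08), and its arrays read 843, 853 and 854 at day 14, against 1974 and 2062 at day 2. The change was higher in VIN13 by 1.15 ± 0.13 (adjusted p = 5.15e-05). PIS1, the phosphatidylinositol synthase, differed by -0.25 ± 0.14 in VIN13 (adjusted p = 0.125) and fell by 0.40 ± 0.15 in BM45 (adjusted p = 0.0278). With median centring the PIS1 difference in BM45 was -0.06 (adjusted p = 0.652), and without the 4 arrays that stood apart it was -0.61. INM1, the inositol monophosphatase that acts after INO1, was the reverse of INO1 between strains: it was higher in VIN13 by 0.997 ± 0.27 at day 2 (adjusted p = 0.011), by 1.08 ± 0.24 at day 5 (adjusted p = 0.00406) and by 1.27 ± 0.24 at day 14 (adjusted p = 0.000419). Without the 4 arrays the INM1 difference at day 2 was 0.28 and was not called (adjusted p = 0.132). BM45 had intensities of 508 on day 2 replicate 2 and 177 on replicate 4. INM2, the other inositol monophosphatase gene, did not share this reversal. Its group means on the log2 scale were 9.79, 9.44 and 9.07 in VIN13 at days 2, 5 and 14. In BM45 they were 9.89, 9.69 and 9.47, above VIN13 at each day. ITR2, the minor inositol transporter, rose by 0.49 ± 0.18 between day 2 and day 5 in BM45 (adjusted p = 0.0293) and fell by 0.46 ± 0.16 between day 5 and day 14 (adjusted p = 0.0192). In VIN13 it was called in neither step. The early ITR2 rise in BM45 was 0.14 without the 4 arrays (adjusted p = 0.257), and the late fall was 0.27 with median centring (adjusted p = 0.0989).

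Of 13 genes that make or consume phosphatidic acid and CDP-diacylglycerol, 4 rose and 5 fell between day 2 and day 14 in VIN13, and 5 rose and 6 fell in BM45. These counts stand against 28.2% of all genes rising and 35.5% falling in VIN13, and 28.8% and 46.6% in BM45. DPP1, a vacuolar phosphatase of diacylglycerol pyrophosphate and phosphatidic acid, read 1752, 1689 and 1668 at day 14, against 4884, 4638 and 5102 at day 2, in VIN13. In BM45 it read 539, 496 and 559 at day 14, against 2708 and 2593 at day 2. It fell by 1.51 ± 0.11 in VIN13 (adjusted p = 4.42e-08) and by 2.28 ± 0.13 in BM45 (adjusted p = 8.74e-10). AYR1, a reductase that makes lysophosphatidic acid, fell by 1.58 ± 0.15 in VIN13 and by 1.24 ± 0.17 in BM45. SPO7, the regulatory subunit of the phosphatase complex that activates the Pah1 lipin, fell by 0.85 ± 0.12 in VIN13 and by 1.59 ± 0.14 in BM45. GPT2, a glycerol-3-phosphate acyltransferase, rose by 0.90 ± 0.10 in VIN13 and by 0.88 ± 0.11 in BM45, and TAM41, the mitochondrial CDP-diacylglycerol synthase, by 0.74 ± 0.14 and 1.09 ± 0.16 in the same order. Of the 4 cardiolipin genes 1 rose and 3 fell in each strain, against the same shares of all genes. CRD1, the cardiolipin synthase, fell by 0.61 ± 0.15 in VIN13 (adjusted p = 0.00219) and by 1.67 ± 0.17 in BM45 (adjusted p = 2.9e-07), a change higher in VIN13 by 1.05 ± 0.22 (adjusted p = 0.00203).

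**Figure D4:**
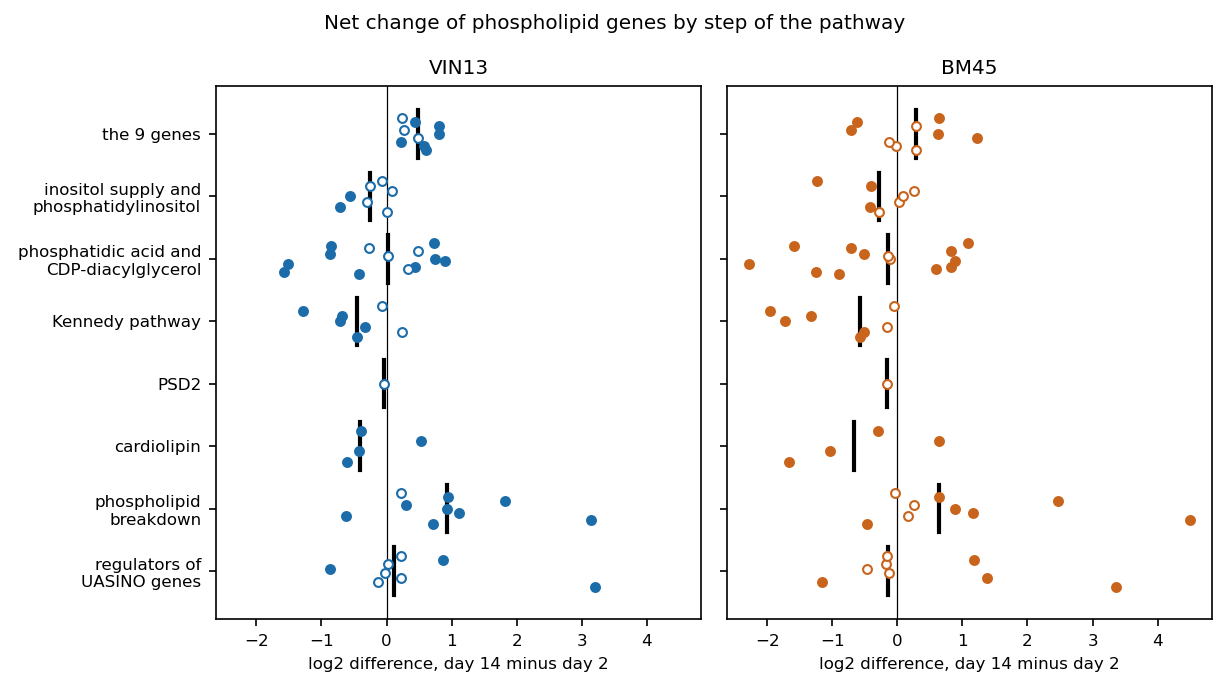
Difference on the log2 scale between day 14 and day 2 for the 9 genes and the 49 other pathway genes by list, with a panel for each strain. Each circle is a gene, filled where adjusted p lay under 0.05 and open otherwise, blue is VIN13, orange is BM45, the short black line is the median of a list, and the median of the Kennedy pathway lies below 0 and that of phospholipid breakdown above it in both strains.

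Of 8 genes that act on the circuit from outside, 2 rose and 1 fell between day 2 and day 14 in VIN13, and 3 rose and 1 fell in BM45. The shares of all genes were 28.2% rising and 35.5% falling in VIN13, and 28.8% and 46.6% in BM45. SCS2, which anchors Opi1 at the endoplasmic reticulum, fell by 0.88 ± 0.25 in VIN13 (adjusted p = 0.00594) and differed by -0.47 ± 0.27 in BM45 (adjusted p = 0.133). IRE1, the sensor of the unfolded protein response, whose mutants need inositol, differed by -0.13 ± 0.12 in VIN13 (adjusted p = 0.355) and fell by 1.16 ± 0.13 in BM45 (adjusted p = 1e-06). The change was higher in VIN13 by 1.03 ± 0.17 (adjusted p = 0.000459). SNF1, the kinase that glucose-repressed genes require, rose by 0.86 ± 0.13 in VIN13 and by 1.18 ± 0.14 in BM45. HAC1, the transcription factor that Ire1 activates by splicing, rose by 3.20 ± 0.89 in VIN13 (adjusted p = 0.00578) and by 3.36 in BM45 (adjusted p = 0.00668), but its arrays spread widely at the early days. In VIN13 they read 2030, 1531 and 1844 at day 14, against 39, 985 and 121 at day 2, and in BM45 6105, 6649 and 6497 at day 14, against 1050 and 351 at day 2. The VIN13 array at 39 was under the background bound of 88.2, and it and the BM45 array at 351 were among the 4 that stood apart. Without those 4 the HAC1 difference between day 14 and day 2 was 2.40 in VIN13 and 2.59 in BM45, where 1 day 2 array was left.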

How the data were processed

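The deposited table holds 1 linear intensity per probe set and array, made by the authors with Affymetrix Expression Console, per the submitters' processing notes. Version, summarisation method, normalization and background correction: not given in the sources used here. Before any step of this re-analysis the median gene of an array lay between 866.6 and 1150.4. The 10928 probe sets ran from 0.000233 to 30409. The array annotation named 5498 probe sets of S. cerevisiae for 5449 genes, and the brightest was used for the 47 genes with more than 1. All 9 members and all 49 other pathway genes matched, and locus tags came from RefSeq's gene table.

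The scale was log2(value + 16), without renormalization or filter. In limma 3.58.1 (R 4.3.3) lmFit and eBayes fitted a mean for each strain and day to all 17 arrays, leaving 11 residual and 3.806 prior degrees of freedom, and 12 contrasts were tested two-sided. Benjamini-Hochberg adjustment ran across the 5449 genes of a contrast, with calls at adjusted p under 0.05. Probe sets for S. pombe set the background bound, at the 95th percentile of their means over the arrays, an intensity of 88.2, and the group means of all 58 genes lay above it. Figures were drawn with matplotlib 3.10.9 under Python 3.11.15.

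The members, gene lists and alternatives were chosen with earlier results of these data known. The text names all members, PSD2 and ITR2. For each list and comparison of days, the plan allowed up to 3 called genes with the largest change to be named. Not all of these are named, and some genes are named for a comparison in which they were not called, such as CKI1 between day 2 and day 5. Single choices were varied in turn, namely the pseudocount (1 or 64), quantile normalization, median centring, averaging of probe sets, removal of dim genes, eBayes with trend and robust options, a fit of the compared arrays alone, a replicate block, the ACT1 ratio as covariate, removal of 4 arrays or of any 1 array, and a threshold of 0.01. For the other pathway genes the fits without 4 arrays and with median centring were added after seeing the data. A search of the promoters for motifs was not run here. On simulated data for BM45 day 5 against day 2 over 5449 genes, the fit called 19 of 50 genes with a true log2 change of 0.5, 41 of 50 at 1, 49 of 50 at 2 and 49 of 50 at 3, and 2.47% of its calls were false. The simulated noise was independent for each gene and array, and only those genes were changed. In the real data 3090 genes were called in this contrast, so these shares need not carry over.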

Additional observations from a re-analysis of the deposited data

Results flagged for a closer look

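Each result here is a change between days that differed between the strains in limma's test of that difference, given as the change in VIN13 minus the change in BM45 on the log2 scale. Between day 5 and day 14 the difference was 1.01 for ITR1 (adjusted p = 0.00631), 0.88 for OPI3 (adjusted p = 0.00217), 0.67 for CHO2 (adjusted p = 0.00404) and 0.34 for INO1 (adjusted p = 0.0351). Between day 2 and day 14 it was 1.05 for OPI3 (adjusted p = 0.00082), 0.97 for ITR1 (adjusted p = 0.00873), 0.61 for CHO2 (adjusted p = 0.00782), 0.53 for OPI1 (adjusted p = 0.0302) and 0.36 for INO1 (adjusted p = 0.0303). Between day 2 and day 5 it was 0.70 for OPI1 (adjusted p = 0.0291).

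The ITR1, OPI3 and CHO2 differences were called in every fit that left out 1 array, with adjusted p up to 0.0479, 0.00735 and 0.0272. Without the 4 arrays that stood apart ITR1 was 1.04 between day 5 and day 14 and 1.20 between day 2 and day 14, and OPI3 was 0.79 and 0.86 over the same spans.

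For INO1 between day 2 and day 14 the call was lost without VIN13 day 2 replicate 3, VIN13 day 14 replicate 1, BM45 day 14 replicate 1 or 2, or either BM45 day 2 array. For OPI1 over the same span it was lost without VIN13 day 2 replicate 1, VIN13 day 14 replicate 1 or 4, BM45 day 2 replicate 2 or any 1 of the BM45 day 14 arrays. Without the 4 arrays that stood apart OPI1 was 0.69 and INO1 was 0.35, with 1 BM45 array left at day 2. The part of RNA quality in these differences was not tested beyond the fits with the ACT1 ratio, in which all 10 were called.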

How the results depend on the processing

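Of the 108 tests of a member in a contrast, 41 were called, and counts called are given here for the alternatives that moved them by over 1.5 times; other causes were not tested. Between day 2 and day 5 in BM45 (1 called) they were 2 with a pseudocount of 64, with dim genes left out, with trend and robust settings and with only the arrays compared, and 3 with quantile normalization, median centring, the ACT1 ratio or without the 4 arrays that stood apart; ITR1 reversed to -0.40 with the ACT1 ratio. Between day 5 and day 14 they were 6 without the 4 arrays and 5 with only the arrays compared in VIN13 (3 called), and 3 at adjusted p under 0.01 in BM45 (6 called). Between day 2 and day 14 in BM45 median centring reversed INO1 to 0.20 and CHO2 to 0.31. For VIN13 against BM45 at day 2 (2 called) they were 4 with the ACT1 ratio or without the 4 arrays, and 0 with only the arrays compared, where limma had 5 arrays. At day 5 (1 called) they were 3 with quantile normalization or the ACT1 ratio, 2 with trend and robust settings, 6 without the 4 arrays and 5 with only the arrays compared. For the change between day 2 and day 5 set between strains (1 called) they were 0 with only the arrays compared or at adjusted p under 0.01, and between day 2 and day 14 (5 called) 3 with either.

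The labels do not say that a replicate number marks a shared culture or batch, so the number was not taken to pair the arrays. Of pairs from different groups, 15 of 31 same-numbered ones had deviations correlated above 0.1 (median r 0.021), against 32 of 89 differently numbered ones (median r -0.023). Deviations from a mean of 2 or 3 arrays are tied to each other, so these values cannot decide whether same-numbered arrays were paired. With the replicate block the counts were 3 for the strains at day 5, 0 for the strain difference in the change between day 2 and day 5, and 3 for that between day 2 and day 14, and no other count moved by over 1.5 times. The INO2 difference between day 2 and day 14 in VIN13 was 0.73 with the block and was called (adjusted p = 0.00819).

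Leaving out 1 array in turn gave, between day 2 and day 5, 2 to 3 in VIN13 and 1 to 4 in BM45, between day 5 and day 14, 3 in VIN13 and 3 to 4 in BM45, and between day 2 and day 14, 5 to 6 in VIN13 and 4 to 5 in BM45. For the strains it gave 2 to 4 at day 2, 1 at day 5 and 4 to 5 at day 14, and for the change set between strains 0 to 2 (days 2 and 5), 3 to 4 (days 5 and 14) and 3 to 5 (days 2 and 14).

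Of all genes, those called for the strains at day 2 numbered 1702 and were 108 with only the arrays compared and 936 at adjusted p under 0.01. At day 5 they numbered 1373 and were 2775 without the 4 arrays, 2087 with only the arrays compared and 761 at 0.01. For the change set between strains they numbered 472 between day 2 and day 5 and were 1494, 194 and 127 in that order, 1861 between day 5 and day 14 and were 3178 without the 4 arrays and 1031 at 0.01, and 2217 between day 2 and day 14 and were 1392 at 0.01. In VIN13, 2052 between day 2 and day 5 became 1225 at 0.01, and 2371 between day 5 and day 14 became 1558.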

Other observations

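Of 9 genes of phospholipid breakdown, 7 rose between day 2 and day 14 in VIN13 and 5 in BM45, where 28.2% of all genes rose in VIN13 and 28.8% in BM45. One fell in each, ISC1 by 0.62 in VIN13 and GDE1 by 0.46 in BM45, where 35.5% and 46.6% of all genes fell. The medians of the 9 genes were 0.92 in VIN13 and 0.64 in BM45, against -0.06 and -0.24 over all genes. GIT1, the transporter that takes up glycerophosphoinositol, had intensities of 1911, 1584 and 1627 at day 14, against 111, 214 and 237 at day 2, in VIN13. In BM45 it had 3814, 3949 and 3715 at day 14, against 306 and 74 at day 2. GIT1 rose by 3.14 ± 0.34 in VIN13 (8.81-fold, adjusted p = 1.71e-06) and by 4.50 ± 0.38 in BM45 (22.6-fold, adjusted p = 4.96e-08), a change lower in VIN13 by 1.36 ± 0.51 (adjusted p = 0.0447). The lower BM45 day 2 array, replicate 4, was at 74, under the background bound of 88.2, and was one of the 4 arrays that stood apart. Without those 4 the GIT1 change was 2.88 in VIN13 and 3.57 in BM45, and the strain difference in it was 0.69 in the same direction.

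PLB3, a phospholipase B that releases glycerophosphoinositol, rose by 1.83 ± 0.28 in VIN13 (adjusted p = 5.12e-05) and by 2.46 ± 0.31 in BM45 (adjusted p = 4.09e-06). NTE1, which deacylates phosphatidylcholine inside the cell, rose by 1.11 ± 0.17 in VIN13 and by 1.16 ± 0.19 in BM45. PLB1, another phospholipase B, rose by 0.92 ± 0.15 in VIN13 and by 0.88 ± 0.17 in BM45, or by 0.57 in BM45 without the 4 arrays. Among the outside regulators MCK1, a kinase needed for full INO1 expression, differed by 0.22 ± 0.25 in VIN13 (adjusted p = 0.453) and rose by 1.37 ± 0.28 in BM45 (adjusted p = 0.000359), a change lower in VIN13 by 1.15 ± 0.37 (adjusted p = 0.0229). Without the 4 arrays the MCK1 rise in BM45 was 0.75 and the strain difference 0.63, with 1 BM45 array left at day 2.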
